A study of Mus musculus with 6 samples.

Results

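The protein-coding genes whose symbol is Mrpl or Mrps followed by a digit, which name the proteins of the large (Mrpl) and small (Mrps) subunits of the mitochondrial ribosome, were followed in mouse liver RNA sequencing. GENCODE M21 lists 78 such genes of the 35082 genes with summed counts, and all 78 passed the filter on low counts that left 12497 genes. The liver came from 6 male mice that started a high-fat diet when 8 weeks old and stayed on it for 20 weeks. The 3 control animals carried floxed alleles of G3bp1 (G3BP1 flox/flox) without Cre, and the other 3 carried the same floxed alleles together with Alb-cre. In these, Cre recombinase is driven by the albumin promoter, which acts in hepatocytes and leaves the other cells of the liver with an intact gene. G3BP1 binds RNA and seeds stress granules, cytoplasmic assemblies of untranslated messages, and the study asked how its loss from hepatocytes alters liver transcripts under this diet.

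The mitochondrial ribosome translates the few messenger RNAs that mitochondrial DNA encodes, all for membrane subunits of the respiratory chain and the ATP synthase. Its ribosomal RNAs are made in the mitochondrion, whereas each of its proteins is encoded in the nucleus, translated in the cytosol and imported, so that assembly joins products of both genomes. Some of its proteins descend from bacterial ribosomal proteins and others were added during the evolution of mitochondria. Liver is rich in mitochondria, which carry fatty acid oxidation and ketone body synthesis. Mrps36 keeps a ribosomal name but is now placed in the alpha-ketoglutarate dehydrogenase complex, and Mrps30 and Mrps18a are counted here in the large subunit, where structures place them.

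Each library held between 20899135 and 21750007 estimated counts. G3bp1, the targeted gene, did not set the groups apart, with 44.1, 34.8 and 40.5 CPM in control livers 1 to 3 and 44.0, 30.0 and 31.5 CPM in the knockout-labelled livers (log2 difference -0.18, standard error 0.22, edgeR adjusted p = 0.91), so the second group is called knockout-labelled. CPM are counts relative to library size, scaled with TMM factors, which adjust library totals for differences in composition. Whether a floxed exon was lost cannot be read from a sum over the gene. Livers are numbered by the replicate numbers of the labels, and p-values set the group difference against the spread between these animals within groups. Knockout-labelled livers 2 and 3 stood apart from the other libraries in the share of transcripts with any count, at 36.33% and 37.78% against 30.23% to 31.23%. They also did so in the share of unscaled counts on mitochondrially encoded genes, at 9.19% and 10.16% against 7.22% to 7.64%. In TMM-scaled CPM they did not stand apart there. The messenger RNAs of the 13 mitochondrially encoded proteins summed to 82200, 90800 and 72100 CPM in control livers 1 to 3. In the knockout-labelled livers they summed to 70100, 86000 and 89300 CPM. Knockout-labelled liver 1 differed in the effective length of 100-base transcripts, 3.5 bases there and 100 bases in the other libraries. The quantification setting behind this is not given. Hepatocyte markers, led by albumin, summed to 96900 to 129000 CPM in the controls and 68600 to 120000 CPM in the other group.

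Messenger RNAs of the mitochondrial ribosome lay slightly lower in the knockout-labelled livers, almost without exception, but no single gene passed the test. Of the 78 genes, 73 had a log2 difference (knockout-labelled minus control) below 0, and the median was -0.34 with quartiles of -0.45 and -0.23. Over all genes tested the median was 0.01 with quartiles of -0.21 and 0.25, and 48.4% lay below 0. By the quasi-likelihood test of edgeR none of the 78 was called at an adjusted p of 0.05, nor was any other gene (0.0% of those tested), and the smallest adjusted p was 0.84. At an unadjusted p under 0.05, 7 of the 78 were lower and 0 higher, against 1.9% and 2.65% of all genes. DESeq2 called 11 genes, 0.0881% of those it tested, and none was a mitochondrial ribosomal protein, while limma voom called 0 genes. All 3 knockout-labelled libraries lay below all 3 controls for 16 of the 78, against 4.55% of all genes, and above them for 0, against 4.79%. The ordered plot of log2 differences shows both subunits spread along the same range.

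**Figure D1:**
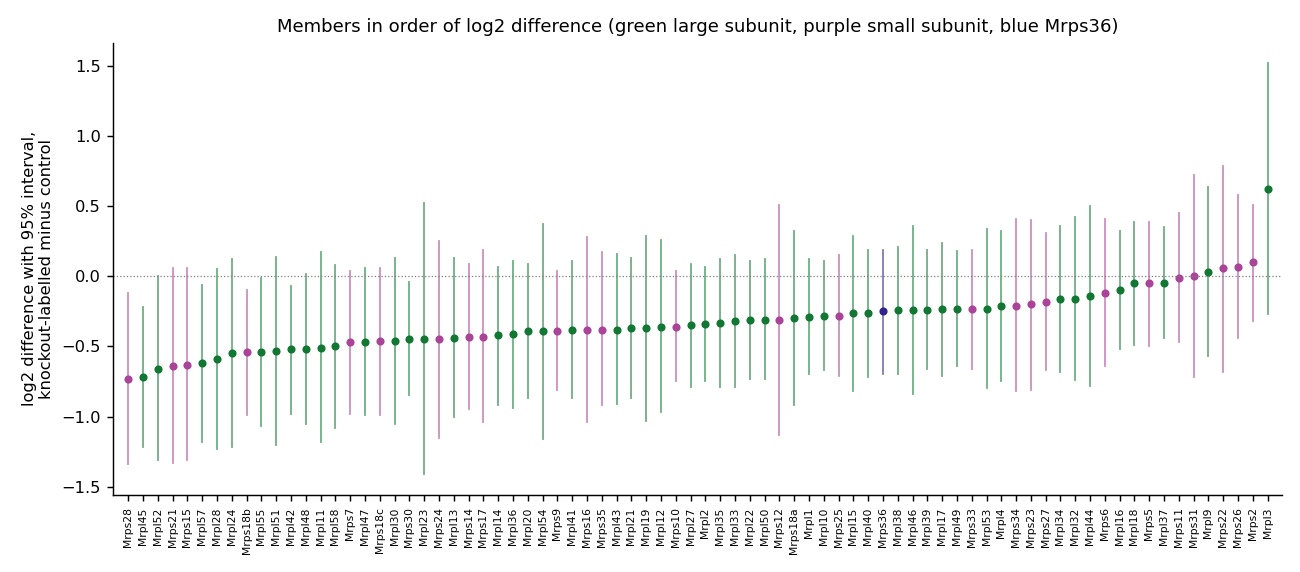
Log2 difference of each mitochondrial ribosomal protein gene, knockout-labelled minus control, in increasing order, with bars for the 95% interval and colours for the subunit. The points run from -0.73 to 0.62, and 73 of 78 lie below 0.

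The genes are scattered over 17 chromosomes, and what many of them share in position is a start site back to back with another gene. A protein-coding gene on the opposite strand starts within 1 kb for 33 of the 78 (42.3%), against 15.8% of tested protein-coding genes. RefSeq gives promoters on GRCm38.p6, taken as 250 bases before to 50 bases after a start, for 69 of the genes, 75 promoters in all. Motifs known from mitochondrial and housekeeping genes were searched on both strands. The ETS motif CCGGAAG, bound by factors such as GABP, stood in 34.7% of these promoters against 16.8% of those of tested protein-coding genes and 8.86% of all promoters. The YY1 motif AAGATGGC stood in 16% of promoters, against 4.3% and 2.75%, and the NRF1 core GCGCATGC in 10.7%, against 4.93% and 2.71%. The GC box GGGCGG, at 52.0%, and TATAAA, at 6.67%, were no more frequent than in tested protein-coding genes, at 60% and 7.77%. A match describes the letters of a window and does not show binding. The 250 bases before the start are printed for 5 genes, 5′ to 3′ on the strand of the gene and with matches to these motifs on either strand in capitals. They are Mrpl45 and Mrpl42, whose groups did not overlap, Mrpl52, the shortest transcript, Mrps2, which lay above 0, and Mrpl22, whose window holds both an ETS motif and an NRF1 core.
Mrpl45, chr11:97315466-97315715, plus strand, no match: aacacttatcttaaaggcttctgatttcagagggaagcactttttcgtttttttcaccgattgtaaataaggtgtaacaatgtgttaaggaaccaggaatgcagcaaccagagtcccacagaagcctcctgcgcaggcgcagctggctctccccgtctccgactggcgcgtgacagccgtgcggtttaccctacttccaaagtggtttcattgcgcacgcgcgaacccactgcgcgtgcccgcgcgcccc
Mrpl42, chr10:95501950-95502199, minus strand, GC box: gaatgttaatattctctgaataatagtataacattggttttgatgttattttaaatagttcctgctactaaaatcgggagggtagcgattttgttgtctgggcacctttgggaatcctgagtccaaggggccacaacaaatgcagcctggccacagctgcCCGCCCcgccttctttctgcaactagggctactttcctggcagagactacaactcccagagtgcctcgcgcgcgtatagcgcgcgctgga
Mrpl52, chr14:54426659-54426908, plus strand, ETS motif: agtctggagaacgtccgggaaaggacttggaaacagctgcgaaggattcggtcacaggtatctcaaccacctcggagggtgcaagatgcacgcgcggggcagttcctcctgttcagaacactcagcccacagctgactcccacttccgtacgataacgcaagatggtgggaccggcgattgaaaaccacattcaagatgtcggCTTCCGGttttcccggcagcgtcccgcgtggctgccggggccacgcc
Mrps2, chr2:28467816-28468065, plus strand, no match: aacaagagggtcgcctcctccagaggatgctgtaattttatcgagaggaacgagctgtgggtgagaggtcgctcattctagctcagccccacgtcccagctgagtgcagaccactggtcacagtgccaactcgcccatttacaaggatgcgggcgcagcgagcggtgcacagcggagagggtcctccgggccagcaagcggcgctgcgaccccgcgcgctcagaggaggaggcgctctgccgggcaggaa
Mrpl22, chr11:58171414-58171663, plus strand, ETS motif and NRF1 core: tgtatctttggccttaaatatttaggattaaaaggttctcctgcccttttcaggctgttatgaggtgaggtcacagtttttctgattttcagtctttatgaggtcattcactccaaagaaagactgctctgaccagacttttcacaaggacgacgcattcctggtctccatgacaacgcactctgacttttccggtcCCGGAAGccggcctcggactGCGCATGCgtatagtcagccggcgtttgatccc

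The promoters of Mrpl45 and Mrps2 hold none of these motifs in the printed window, and their log2 differences were -0.72 and 0.10. Mrpl22, a large subunit protein with an ETS motif and an NRF1 core, measured 21.6, 26.4 and 25.4 CPM in control livers 1 to 3 and 22.1, 18.3 and 18.8 CPM in the knockout-labelled livers (log2 difference -0.31). Knockout-labelled liver 1 lay within the range of the controls there, and the other livers of that group lay below it. The 5 genes printed were chosen after their values and sequences were seen.

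In the large subunit 49 of 51 genes lay below 0, with a median log2 difference of -0.35, and 5 had an unadjusted p under 0.05. Mrpl45, a protein at the polypeptide exit that faces the inner membrane (chromosome 11, 97315716 to 97329920, plus strand, GRCm38), measured 54.0, 63.4 and 52.6 CPM in control livers 1 to 3 and 39.1, 25.8 and 38.2 CPM in the knockout-labelled livers. Every knockout-labelled library lay below every control, with liver 2 lowest. The log2 difference of Mrpl45 was -0.72 (standard error 0.22, unadjusted p = 0.0108, edgeR adjusted p = 0.84). Mrpl42, a subunit without a bacterial counterpart (chromosome 10, 95480805 to 95501940, minus strand), measured 51.9, 57.3 and 67.4 CPM in the controls and 46.8, 40.1 and 35.9 CPM in the knockout-labelled livers, again without overlap (log2 difference -0.52, standard error 0.20, edgeR adjusted p = 0.84). Mrps30, another mitochondria-specific subunit (chromosome 13, 118378381 to 118387252, minus strand), measured 27.2, 27.5 and 23.3 CPM in the controls and 20.7, 18 and 18.7 CPM in the knockout-labelled livers. The 3 knockout-labelled values lay close together and below the lowest control (log2 difference -0.45, standard error 0.18, edgeR adjusted p = 0.84).

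Mrpl57, a mitochondria-specific subunit of the large particle (chromosome 14, 57826234 to 57829296, plus strand), measured 40.0, 26.3 and 32.1 CPM in control livers 1 to 3 and 27.4, 18.7 and 17.9 CPM in the knockout-labelled livers, a log2 difference of -0.62 with overlap of control liver 2 and knockout-labelled liver 1. Between 66.0% and 85.0% of its counts lay on a transcript annotated with a retained intron, so the sum does not follow its coding messenger RNA alone. Mrpl55 was the other large subunit gene with an unadjusted p under 0.05 (log2 difference -0.54). Mrpl58, which also acts as a peptidyl-tRNA hydrolase that releases stalled chains, measured 49.6, 48.4 and 50.6 CPM in the controls and 47.9, 32.5 and 24.8 CPM in the knockout-labelled livers (log2 difference -0.50). Its groups did not overlap although knockout-labelled liver 1 lay just under the controls. Mrpl58 and Mrpl55 were named after their values were seen.

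In the small subunit 23 of 26 genes lay below 0, with a median log2 difference of -0.33, and 2 had an unadjusted p under 0.05. Mrps28 (chromosome 3, 8802146 to 8923918, minus strand) measured 20.8, 19.7 and 18.8 CPM in control livers 1 to 3 and 17.0, 8.76 and 10.1 CPM in the knockout-labelled livers. The controls were close together and all 3 knockout-labelled libraries lay under them, liver 1 least (log2 difference -0.73, standard error 0.27, edgeR adjusted p = 0.84). Mrps18b (chromosome 17, 35910379 to 35916389, minus strand) measured 46.8, 54.4 and 50.9 CPM in the controls and 41.4, 31.4 and 31.6 CPM in the knockout-labelled livers, with the same order of libraries (log2 difference -0.54, standard error 0.19, edgeR adjusted p = 0.84). It is 1 of 3 mammalian genes related to a single bacterial protein. Of the others, Mrps18c had a log2 difference of -0.46 and Mrps18a, the copy found in the large subunit, -0.30 (edgeR adjusted p = 0.84 and 0.88). Mrps18a measured 17.6, 28.3 and 35.9 CPM in the controls and 25.8, 20.4 and 20.2 CPM in the knockout-labelled livers, so that the lowest value of the 6 was a control. Differences among the 3 copies were not tested.

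The ratio between the subunits differed little between libraries in summed CPM and more in median CPM per kb. Summed CPM of the small subunit genes was 0.44, 0.444 and 0.44 of that of the large subunit genes in control livers 1 to 3 and 0.448, 0.433 and 0.45 in the knockout-labelled livers. The median CPM per kb of the small subunit genes was 0.864, 0.903 and 0.847 of that of the large subunit genes in the controls, and 0.956, 0.862 and 0.888 in livers 1 to 3 of the other group. Genes with a bacterial counterpart had a median log2 difference of -0.36 (44 of 47 below 0) and those without one -0.27 (28 of 30 below 0). Mrps36, of the dehydrogenase complex, had a log2 difference of -0.25 (edgeR adjusted p = 0.85).

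**Figure D2:**
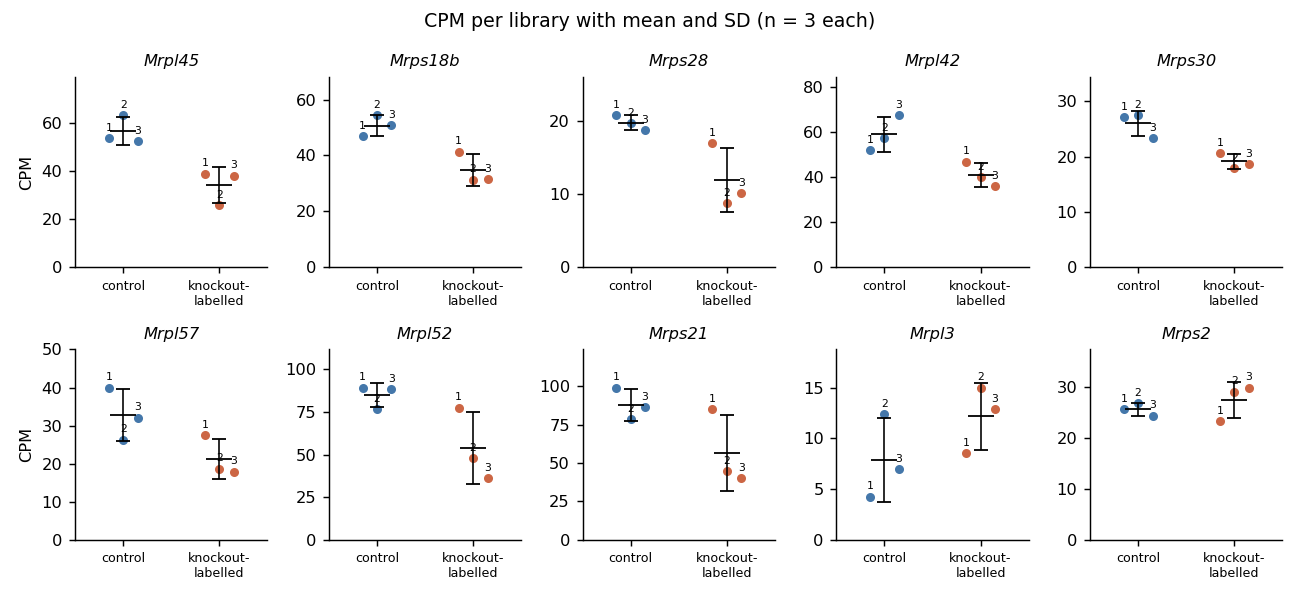
CPM in each of the 6 libraries for named mitochondrial ribosomal protein genes, with a bar at each group's mean and an error bar of 1 SD (n = 3). Mrpl45 and Mrps28 show separate groups, and in Mrps2 and Mrpl3 the groups overlap with the knockout-labelled mean above that of the controls.

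Only 5 genes lay above 0, and none of them separated the groups. Mrpl3, a conserved protein of the large subunit, measured 4.26, 12.4 and 6.96 CPM in control livers 1 to 3 and 8.54, 15 and 12.9 CPM in the knockout-labelled livers (log2 difference 0.62, standard error 0.39, edgeR adjusted p = 0.84). Most of its counts lay on transcripts annotated as non-coding or as targets of nonsense-mediated decay, 56.2% to 84.7% per library. Mrps2, a conserved protein of the small subunit, measured 25.6, 26.9 and 24.4 CPM in the controls and 23.3, 29.1 and 29.9 CPM in the knockout-labelled livers, of which liver 1 was the lowest of the 6 (log2 difference 0.10, edgeR adjusted p = 0.94). Mrps26, Mrps22 and Mrpl9 had log2 differences of 0.07, 0.06 and 0.03. Each of these 3, and Mrps2, took the opposite sign when 1 or 2 libraries were left out, whereas Mrpl3 did not in any alternative. Between 67.1% and 81.3% of the counts of Mrps26 lay on a transcript annotated with a retained intron.

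Compared per kilobase of transcript, the most abundant of the 78 were Mrps21, Mrpl52 and Mrpl30, with mean levels of 170, 166 and 114 CPM per kb, where the median of the 78 was 26.9 and that of all genes tested 3.8. Mrps21 measured 99.2, 78.6 and 86.5 CPM in control livers 1 to 3 and 85.3, 44.7 and 40.3 CPM in the knockout-labelled livers (log2 difference -0.64), and Mrpl52 measured 89.3, 76.7 and 88.5 against 77.5, 48.0 and 36.1 CPM (log2 difference -0.66). In both genes knockout-labelled liver 1 lay inside the range of the controls, and livers 2 and 3 lay far below it. Mrpl30 measured 86.1, 94.0 and 83.0 against 87.0, 58.2 and 45.7 CPM, with the same order (log2 difference -0.46). The least abundant were Mrpl19, Mrpl23 and Mrps30, at 2.96, 4.90 and 6.79 CPM per kb. Reads of Mrpl23, whose protein borders the polypeptide exit, can be shared with its processed copy Mrpl23-ps1, which held 75.1, 47.3 and 58.3 CPM in the controls and 66.1, 27.3 and 20.5 CPM in the knockout-labelled livers, far more than Mrpl23 itself. The level of Mrpl23 is therefore uncertain, and the sum of the pair was 64.0 ± 15.7 CPM in the controls and 40.7 ± 25.7 CPM in the knockout-labelled group (SD, n = 3 each), with overlap.

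The group difference lay in livers 2 and 3 of the knockout-labelled group. As the median over the 78 genes of the deviation from each gene's mean log2 CPM, control livers 1 to 3 had 0.07, 0.22 and 0.26, knockout-labelled liver 1 had 0.09, and livers 2 and 3 had -0.23 and -0.36. Knockout-labelled liver 1 thus lay among the controls. Liver 3 of that group was the lowest of the 6 libraries for 48 of the 78 genes and liver 2 for 13, while liver 1 was lowest for 4 and control liver 1 for 10. Over all genes tested, these shares were 18.3%, 13.5%, 11.3% and 21.8% in the same order. Below all 3 controls were 22, 53 and 60 of the 78 in knockout-labelled livers 1 to 3, against 16.8%, 26.1% and 25.6% of all genes. Large and small subunit genes followed the same course, with medians of -0.42 and -0.35 in knockout-labelled liver 3. The summed level of the 78 was 2778, 2928 and 2987 CPM in the controls and 2720, 2131 and 1913 CPM in the knockout-labelled livers. The SD among the controls in log2 CPM had a median of 0.18 over the 78 genes against 0.33 over all genes, and it reached 0.82 in Mrps12. The 78 are also more abundant, with a median control level of 33.1 CPM against 9.73 CPM over all genes. Their SD was not compared with that of genes of like abundance. In whole tissue, fewer cells of a type and less RNA per cell cannot be told apart.

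**Figure D3:**
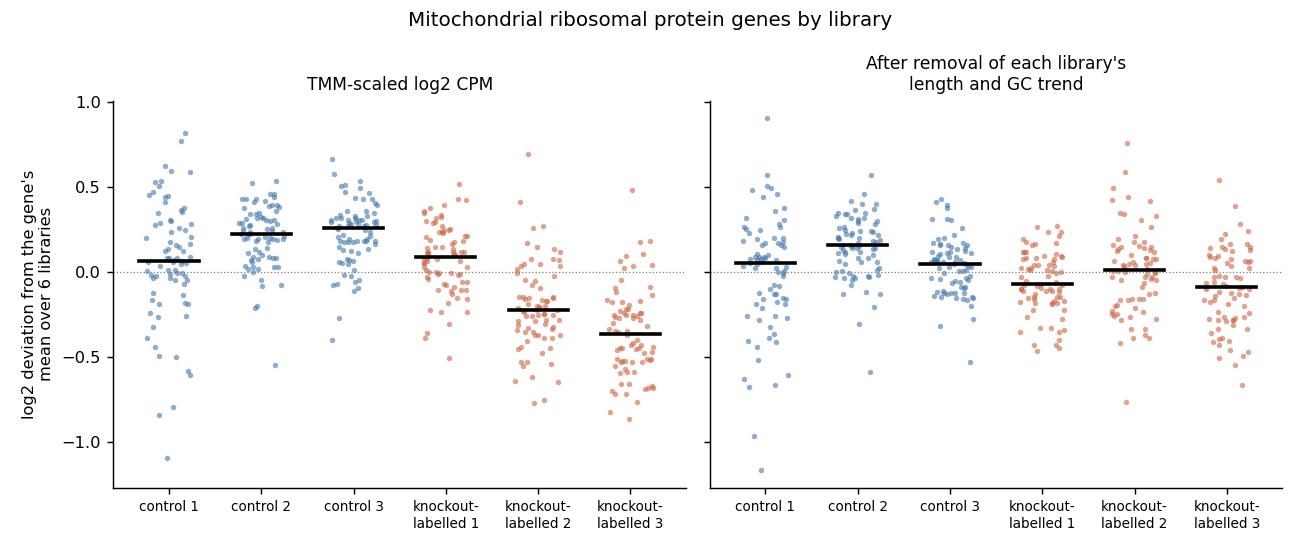
Deviation of each mitochondrial ribosomal protein gene from its mean log2 CPM over the 6 libraries, by library, before and after removal of the trend over transcript length and GC content within each library. Before removal the medians of knockout-labelled livers 2 and 3 are -0.23 and -0.36 and those of the other libraries 0.07 to 0.26, and after it all 6 lie between -0.09 and 0.16.

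Without knockout-labelled liver 1 the median log2 difference of the 78 genes was -0.49, and 38 of them had an unadjusted p under 0.05 on the lower side, against 8.55% of all genes. All remaining knockout-labelled values lay below all controls for 52 of the 78, against 17.3% of all genes, and without control liver 1 this count was 41, against 13%. None was called without knockout-labelled liver 1, with a smallest adjusted p of 0.16 among them (edgeR). With liver 1 as the only knockout-labelled library the median was -0.12, 61 genes lay below 0, against 52.0% of all genes, and 0 had an unadjusted p under 0.05 on the lower side, against 0.869%. That fit takes the spread of the lone library to equal that of the controls. The separation of livers 2 and 3 coincides with their higher share of detected transcripts and of mitochondrially encoded counts before TMM scaling, given above. The part of these in the difference was not tested.

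Transcripts of mitochondrial ribosomal proteins are short, and genes with short transcripts lay lower as a class in knockout-labelled livers 2 and 3 but not in liver 1. Over all genes of up to 800 bases the median deviation was 0.27, 0.14 and 0.31 in the controls and 0.22, -0.32 and -0.55 in knockout-labelled livers 1 to 3. The median transcript length was 1013 bases for the 78 genes and 2469 bases for all genes tested, and 65.4% of the 78 but 15.3% of all genes had at most 1200 bases. Among genes of up to 800 bases the median log2 difference was -0.41 over all 692 and -0.41 over the 22 mitochondrial ribosomal protein genes. From 800 to 1200 bases the medians were -0.24 over all 1226 genes and -0.34 over the 29 of the set. From 1200 to 2000 bases they were -0.08 over 2878 genes and -0.23 over the 19 of the set. From 2000 to 4000 bases the median of all 4943 genes was above 0, at 0.08, while that of the 7 of the set was -0.31. Beyond 4000 bases stood Mrpl19 alone, at -0.37 beside a median of 0.17. Of the 78, 49 lay below the median of their own length class, and the distance from that median was -0.09 at the median of all 78. Across genes, the log2 difference and log2 transcript length had a Pearson r of 0.28 over the 78 and of 0.36 over the 12497 genes tested (Spearman rho 0.36 and 0.42). These genes share the same 6 libraries and are not independent replicates.

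**Figure D4:**
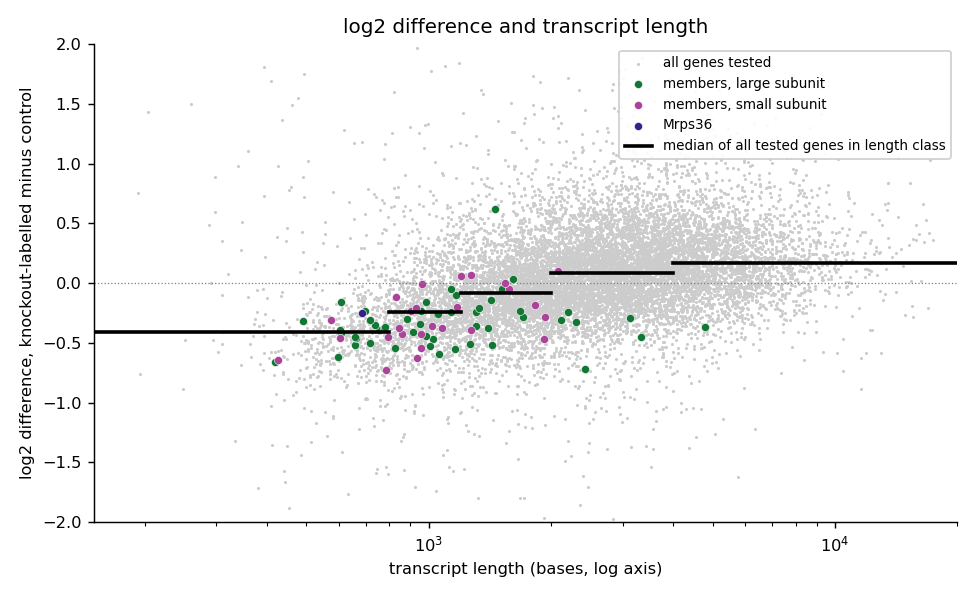
Log2 difference, knockout-labelled minus control, against transcript length in bases (log axis), for all genes tested in grey and the mitochondrial ribosomal protein genes in colour, with the median of each length class over all genes. Genes outside the plotted range are not drawn. The class medians climb from -0.41 to 0.17, and of the 8 coloured points beyond 2000 bases all but Mrps2 lie below them.

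When the trend over transcript length and GC content was removed within each library, the median log2 difference of the 78 genes was -0.10 in place of -0.34. That of all genes was -0.03 in place of 0.01. Of the 78, 55 lay below 0, against 53.7% of all genes. By library the median deviations were then 0.05, 0.16 and 0.05 in control livers 1 to 3 and -0.07, 0.01 and -0.09 in the knockout-labelled livers, so that the controls still lay above the other group, by less than before, and control liver 2 stood highest. At an unadjusted p under 0.05 were 4 genes on the lower side, against 1.78% of all genes, and none was called, with a smallest edgeR adjusted p of 0.96 among the 78. All knockout-labelled libraries lay below all controls for 10 genes, against 5.11%, of which 9 did so before, and above them for Mrps6 alone, against 3.4%.

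The change with the trend was unequal along the set. Among the 70 genes of up to 2000 bases the median went from -0.36 to -0.06, whereas among the 8 longer ones it went from -0.32 to -0.38, with 7 of 8 below 0 in both. Mrpl45, of 2428 bases, had a log2 difference of -0.77 with the trend removed (unadjusted p = 0.0057) and Mrps30, of 3321 bases, -0.57 (unadjusted p = 0.018). Mrpl1, which forms a mobile stalk of the large subunit and has 3130 bases, measured 26.9, 31.9 and 27.2 CPM in control livers 1 to 3 and 25.8, 23.1 and 21.4 CPM in the knockout-labelled livers, without overlap, and its log2 difference was -0.29 before and -0.40 after. Mrpl50 measured 50.5, 59.0 and 52.1 against 49.2, 41.7 and 39.7 CPM, with -0.31 before and -0.34 after. In both genes knockout-labelled liver 1 was the closest to the controls, and with the trend removed their groups overlapped. Mrpl35 and Mrpl39, whose groups overlapped before, had -0.33 and -0.24 before and -0.37 and -0.26 after. Among the 8 longer genes, all knockout-labelled libraries lay below all controls for 4 before, against 4.55% of all genes tested. This held for 3 after, against 5.11%, which were Mrpl45, Mrps30 and Mrpl39. The share among all genes of like length was not computed. Mrpl19, the longest at 4789 bases, measured 23.4, 11.8 and 12.8 CPM in the controls and 10.7, 13.9 and 12.6 CPM in the knockout-labelled livers. Control liver 1 alone stood high there, and without it the log2 difference was 0.01 in place of -0.37. Mrps2 was the long gene above 0. Mrpl50, Mrpl35 and Mrpl39 were named after their values were seen.

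The shortest of the set came nearer to 0 with the trend removed. Mrpl52 (419 bases), Mrps21 (425 bases) and Mrpl33 (491 bases), all small proteins of the ribosome, had log2 differences of -0.66, -0.64 and -0.32, and with the trend removed -0.06, -0.24 and 0.02. Mrpl33 measured 28.1, 26.7 and 30.3 CPM in control livers 1 to 3 and 27.8, 21.8 and 18.4 CPM in the knockout-labelled livers, with liver 1 inside the range of the controls. Among the 22 genes of up to 800 bases 14 lay below 0 with the trend removed, with a median of -0.06, in place of 22. Mrps28, of 783 bases, had a log2 difference of -0.44 with the trend removed and kept an unadjusted p under 0.05 (0.036). Mrps7, a conserved small subunit protein of 1918 bases, had -0.47 before (unadjusted p = 0.0675) and -0.50 after (unadjusted p = 0.03). Mrps7 was named after its values were seen.

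Scaling also set the level of the whole set. When libraries were scaled to their totals alone, the median log2 difference of all genes moved up by 0.26, that of the 78 genes was -0.08, and the distance between them was -0.36, the same as with TMM factors. With that scaling all knockout-labelled libraries lay below all controls for 2 of the 78, against 0.48% of all genes, and above them for 2, against 18.4%. In the deposited TPM, which are relative to transcript length and to the library's total, the median of the 78 genes was 23.8, 26.2 and 34.0 in control livers 1 to 3 and 31.3, 26.8 and 25.3 in the knockout-labelled livers. The group difference of the median deviation on the log2(TPM + 1) scale was 0.02 for the 78 and 0.21 for all genes, so that the set lay lower only relative to other genes. In TPM 0 of the 78 had every knockout-labelled library below every control, against 0.328% of all genes, and 4 had the reverse, against 19.8%.

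Genes that share a start region with a mitochondrial ribosomal protein gene gave a comparison within the same stretch of chromosome. Of the divergent neighbours, 27 were tested and are not themselves of the set. All 27 mitochondrial ribosomal protein genes of these pairs lay below 0, with a median log2 difference of -0.37, whereas 12 of the 27 neighbours did, with a median of 0.05. The neighbours were longer, with a median transcript length of 2013 bases against 1007. Where the neighbour was the longer transcript, the mitochondrial ribosomal protein gene was the lower in 20 of 22 pairs, and the neighbours had a median of 0.16. Where the neighbour was the shorter, the mitochondrial ribosomal protein gene was the lower in 1 of 5 pairs, and the neighbours had a median of -0.51. Mrpl14, at -0.42, faces Tmem63b, a membrane channel gene at 0.90, and Mrps18b faces Ppp1r10, a nuclear regulator of protein phosphatase 1, at 0.74. Ppp1r10 measured 11.8, 10.4 and 12.6 CPM in control livers 1 to 3 and 11.5, 13.7 and 33.0 CPM in the knockout-labelled livers, so that liver 3 alone stood far above the controls. The short neighbours Ndufb5 and Ndufs6, subunits of respiratory complex I, had -0.52 and -0.51, and Fau, which encodes a cytosolic ribosomal protein fused to a ubiquitin-like one, -0.55. Measured from the median of their own length class, the mitochondrial ribosomal protein genes had a median of -0.05 and their neighbours 0.09. Differences within pairs were not tested.

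**Figure D5:**
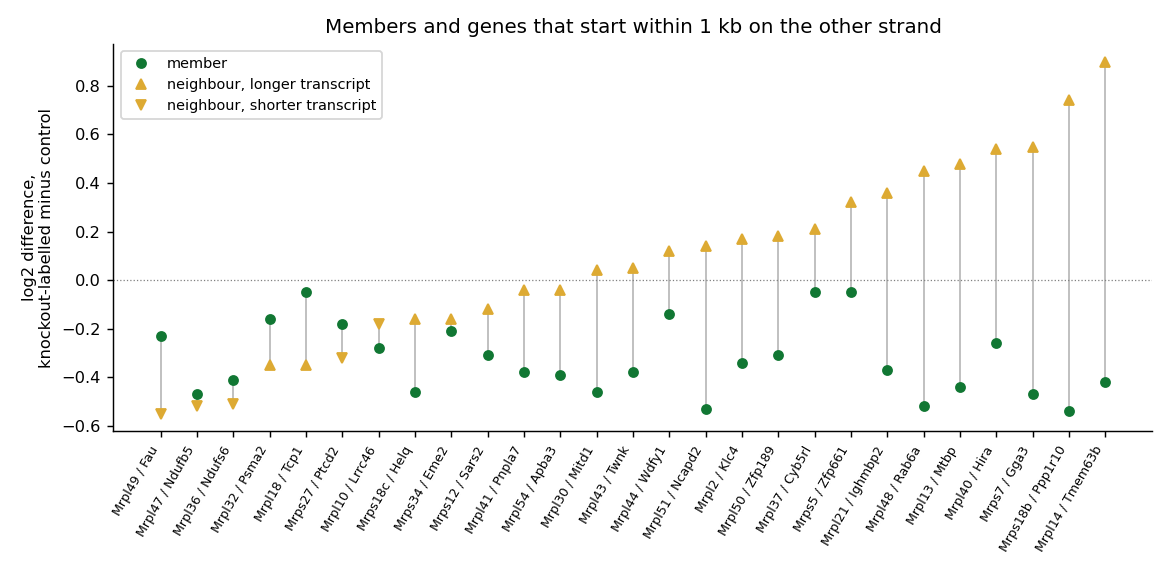
Log2 difference, knockout-labelled minus control, of 27 mitochondrial ribosomal protein genes and of the gene that starts back to back with each, joined by a line. All 27 points of the ribosomal genes lie below 0, and 12 of the 27 neighbours do.

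Counts of the 78 genes lay mostly on protein-coding transcripts, with 85.7%, 89.2% and 88.8% in control livers 1 to 3 and 83.6%, 88.2% and 88.3% in the knockout-labelled livers. In Mrps26, Mrps14, Mrpl15, Mrpl51 and Mrpl32, as in Mrpl57 and Mrpl3, most counts lay on other transcripts in every library. Transcripts with a retained intron took 5.44%, 3.38% and 3.59% in the controls, and 5.46%, 4.67% and 4.83% in livers 1 to 3 of the other group, with control liver 1 close to the highest of the other group. Of the 342 annotated transcripts of the 78 genes, 69.0%, 68.1% and 69.3% had a count above 0 in the controls, and 70.5%, 76.3% and 74.0% in livers 1 to 3 of the other group. Another annotated gene overlaps 42 of the 78 (53.8%, against 54.8% of tested protein-coding genes), and reads of such pairs cannot be told apart without strand. The 36 genes that overlap none gave the same picture, with 35 below 0 and a median of -0.35.

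Other genes of mitochondrial translation and of its control were taken from lists, and none of their members was called by edgeR. All 5 subunits of the ribosome with other symbols lay below 0, with a median log2 difference of -0.22. Among them Gadd45gip1, a large subunit protein needed for membrane insertion of new chains, measured 90.9 ± 34.2 CPM in the controls and 54.6 ± 28.0 CPM in the knockout-labelled group (SD, n = 3 each; log2 difference -0.74), and Aurkaip1 of the small subunit had -0.56. Factors of ribosome assembly were nearer to 0, with a median of -0.11 and 18 of 27 below 0. The median transcript length was 1088 bases for the 5 subunits, 1679 for assembly factors and 1907 for translation factors. All genes had a median of -0.24 from 800 to 1200 bases and of -0.08 from 1200 to 2000 bases. The small subunit maturation factor Rbfa had -0.44 and the RNA chaperone Eral1 -0.38. Translation factors had a median of -0.23 with 13 of 18 below 0, led by 2810006K23Rik at -0.71, the 1 member with an unadjusted p under 0.05, and by Pdf, the deformylase of new chains, at -0.66. Genes of mitochondrial DNA transcription, replication and RNA processing were balanced, with 11 below 0 and 11 above. Rexo2, a nuclease of short RNAs, measured 91.9 ± 2.46 CPM in the controls and 67.2 ± 9.16 CPM in the knockout-labelled group (SD, n = 3 each; log2 difference -0.45), and 1110008L16Rik had -0.35.

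Nuclear regulators of mitochondrial genes lay above 0 in 7 of 9 cases, with a median log2 difference of 0.13. Their transcripts are long, with a median of 3218 bases. Over all genes the median was 0.08 from 2000 to 4000 bases (39.8% below 0) and 0.17 beyond 4000 bases (27.9% below 0). Whether the regulators differ from genes of like length was not tested. Ppargc1a, a coactivator of mitochondrial biogenesis, had 0.49 and its relative Pprc1 0.36 (edgeR adjusted p = 0.84 and 0.85). Ppargc1b, of the same family and named after its value was seen, had -0.50 (edgeR adjusted p = 0.90). Of the 13 proteins that the mitochondrial ribosome makes, 8 had messenger RNAs above 0 and 5 below, with a median of 0.14. The median deviation over these 13 was 0.02, 0.14 and -0.09 in control livers 1 to 3 and -0.70, 0.27 and 0.28 in the knockout-labelled livers. By this median knockout-labelled liver 1 stood lowest and the other livers of that group highest, but the order was not shared by all 13. The very short transcripts mt-Atp8, of the ATP synthase, and mt-Nd4l, of complex I, had log2 differences of 1.43 and 0.89 (standard errors 0.91 and 0.60, edgeR adjusted p = 0.84 and 0.85). In control livers 1 to 3 mt-Atp8 measured 197, 634 and 254 CPM, and in the knockout-labelled livers 71.0, 1340 and 1510 CPM. For mt-Nd4l the values were 117, 148 and 89.2 against 48.5, 237 and 370 CPM. Knockout-labelled liver 1 was the lowest of the 6 libraries for both. For mt-Co2 and mt-Nd3 it was instead the highest (log2 differences 1.18 and 0.51). mt-Co2 measured 2710, 1530 and 1460 CPM in the controls and 11900, 576 and 498 CPM in the knockout-labelled livers. For mt-Nd3 the values were 1730, 917 and 1300 against 3650, 1080 and 894 CPM. These 2 genes were named after their values were seen. The part of the effective lengths of liver 1, given above, in these values was not tested.

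Markers of other cell types were measured beside these results. All 10 Kupffer cell markers lay below 0, with a median log2 difference of -0.61. Their sums were 233, 349 and 759 CPM in control livers 1 to 3 and 330, 238 and 289 CPM in the knockout-labelled livers. Control liver 3 alone stood far above the other libraries, and control liver 1 had the lowest sum of the 6. The 5 red blood cell markers were each lower, with log2 differences that had a median of -0.97, and sums of 1680, 727 and 1490 CPM in control livers 1 to 3 and 1110, 445 and 438 CPM in the knockout-labelled livers. Livers 2 and 3 of the knockout-labelled group were the lowest both for red blood cell markers and for the mitochondrial ribosomal proteins, and the part of the former in the latter was not tested. The red blood cell markers are short too, with a median transcript length of 628 bases. All genes of up to 800 bases were also lowest in these livers, with median deviations of -0.32 and -0.55. Endothelial markers summed to 138 to 209 CPM in the controls and 146 to 214 CPM in the other group (5 of 8 above 0), and stellate cell markers to 92.9 to 284 CPM and 139 to 239 CPM (4 of 8 above 0). Bile duct markers summed to 35.4 to 54.6 CPM and 26.9 to 44.0 CPM, lymphocyte markers to 12.4 to 25.7 CPM and 8.59 to 25.5 CPM, and neutrophil markers to 4.22 to 15.3 CPM and 3.56 to 6.04 CPM. Of hepatocyte markers 6 of 10 lay above 0, with a median of 0.03. Their sum was lowest, at 68600 CPM, in knockout-labelled liver 3, which was also the lowest for most mitochondrial ribosomal protein genes, and its part in the difference was not tested. The neutrophil markers Ly6g and Retnlg did not pass the filter on low counts. The lack of Ly6g counts in knockout-labelled livers 2 and 3 is therefore not read as a difference. Of the 3 neutrophil markers tested, S100a8 and S100a9 had log2 differences of -1.44 and -1.33, at a few CPM. Csf3r had a mean of 1.84 CPM in both groups.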

How the data were processed

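Each deposited file holds the estimated count, TPM, length and effective length of 115221 transcripts of 1 liver library, in Salmon's column layout, per the file headers. The sources used here do not give the version or options of the quantification. The file headers name the columns and do not state a scaling. Library totals of the estimated counts differ, and TPM are by definition relative to the library's total. The submitters' processing notes name Bowtie2 2.2.5, RSEM 1.2.8, DESeq and GRCm38, with no role.

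GENCODE M21 (GRCm38) gave each transcript its gene. Of these, 113664 matched without their version and 1557, with 0.216% to 0.268% of counts, did not. Estimated counts were summed by gene, rounded, filtered with filterByExpr, and scaled with TMM. edgeR 4.0.16 (R 4.3.3) gave two-sided quasi-likelihood p-values, which were adjusted by Benjamini-Hochberg over 12497 genes and read at 0.05. The design text describes 3 biological replicates per group. CPM are TMM-scaled. Log2 CPM had a prior count of 2 and log2 TPM a pseudocount of 1. A gene's length is the TPM-weighted mean of its transcripts. The length and GC trend was a loess fit per library (span 0.5, degree 2), used as an offset. The test was checked on simulated data.

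Members and lists were chosen with earlier results of these data known. Mrps6, Mrps12, Mrpl14 and the divergent neighbours were named after their values were seen. Named are the 6 members with the smallest p on each side of 0 (5 lay above it), the 3 most and 3 least abundant per kb, the 3 longest and 3 shortest, the Mrps18 copies, 2 genes of each list, and those said to be chosen after seeing values. Alternatives were DESeq2 1.42.0, limma 3.58.1 (voom), other scalings, filters and gene sets, length and GC corrections, a replicate block and left-out libraries. Protein sequences were not used here.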

Additional observations from a re-analysis of the deposited data

How the results depend on the processing

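The number of genes called by edgeR, 0, was 11 with DESeq2, 3 without knockout-labelled replicate 1 and 9 with knockout-labelled replicates 2 and 3 both left out, and in each alternative 0 of the 78 mitochondrial ribosomal protein genes were called. Their median log2 difference, -0.34, was -0.08 with library totals, -0.10 with the length and GC trend removed and -0.12 with knockout-labelled replicates 2 and 3 left out, and ran from -0.49 to -0.24 with 1 library left out. With the effective lengths of each library as an offset the median was -0.29. In that fit 67 of the 78 lay below 0, against 48.0% of all genes. The number of genes with every knockout-labelled library below every control, 16, was 2 with library totals, 0 in TPM, 10 with the trend removed and between 16 and 52 with 1 library left out (41 without control replicate 1, 52 without knockout-labelled replicate 1). The group difference of the median deviation, -0.35 in CPM, was 0.02 in TPM, a unit that takes no TMM factors. Of 20 named genes, 7 changed sign in some alternative. Mrps2 was -0.14, Mrps22 -0.14, Mrpl9 -0.41 and Mrpl23 0.07 with knockout-labelled replicates 2 and 3 left out. Without control replicate 1, Mrps26 was -0.07, Mrps22 -0.23, Mrpl9 -0.14 and Mrpl19 0.01. Mrps26 was -0.06 without knockout-labelled replicate 1, Mrps22 -0.04 and Mrpl9 -0.09 without knockout-labelled replicate 2, Mrpl9 -0.04 without knockout-labelled replicate 3, and Mrpl33 0.02 with the trend removed. With 1 library left out, Mrps26 ran from -0.07 to 0.20, Mrps22 from -0.23 to 0.39, Mrpl9 from -0.14 to 0.27 and Mrpl19 from -0.55 to 0.01. The causes were not tested.

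With the replicate number as a block the median was -0.34, 0 genes were called, and at an unadjusted p under 0.05 were 13 of the 78 on the lower side, against 3.18% of all genes, and 1 on the higher side. Same-numbered libraries had correlated deviations of 0.195, 0.275 and -0.145 for numbers 1 to 3, so the numbers were not taken to pair the animals. Depth limits Mrpl23 most, with 37 to 101 counts per library.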
